A study of Rattus norvegicus with 4 samples.

Results

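Hepatocyte transporters of bile salts and other organic anions were examined in rat liver 1 h after the common bile duct had been tied. They were represented by 4 genes, Slc10a1, Abcc2, Abcc4 and Slco2b1, chosen by name, and by every probe to which the platform annotation assigned one of these symbols and no other. This gave 8 of 1936 probes: 2 for Slc10a1, 1 each for Abcc2 and Abcc4, and 4 for Slco2b1. Per the labels, male Sprague-Dawley rats of 250 to 300 g had the duct tied, or had a sham operation in which it was exposed but not tied. Animals of both groups were opened under ether. Livers of groups of 3 rats were pooled as RNA, so the spread between arrays is not a spread between animals. The labels name no age. Both RNAs were hybridised together on 4 two-colour cDNA arrays, with the ligated sample in Cy5 on arrays 1 and 3 and in Cy3 on arrays 2 and 4.

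Hepatocytes take bile salts from portal blood across the basolateral membrane and secrete them into bile across the canalicular membrane. Slc10a1 encodes NTCP, the sodium-dependent bile salt importer of the basolateral membrane, and Slco2b1 encodes OATP2B1, a sodium-independent organic anion importer. Abcc2 encodes MRP2, the canalicular export pump for bilirubin glucuronides and glutathione conjugates, and Abcc4 encodes MRP4, a basolateral pump that can return bile salts to blood. In longer obstruction the importer is known to be lowered and MRP4 raised. The comparison asks whether such a change was measurable in mRNA within the first hour.

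Bile salts act on gene transcription through nuclear receptors, many of which bind the half-site AGGTCA. The 250 bases before the RefSeq start of each of the 4 genes were therefore searched for AGGTCA on both strands (TGACCT where the half-site is on the other strand). Slc10a1 and Abcc2 held it at 2 places each, and the Abcc4 and Slco2b1 windows did not contain these letters. Of 33469 rat promoter windows of the same length, 14.1% held it. The Slc10a1 and Abcc2 windows are printed in the direction of transcription, from RefSeq on GRCr8, with the matches in capitals, because these genes are the main importer and the main canalicular pump of the set.
Slc10a1 (chr6:106357945-106358194, minus strand): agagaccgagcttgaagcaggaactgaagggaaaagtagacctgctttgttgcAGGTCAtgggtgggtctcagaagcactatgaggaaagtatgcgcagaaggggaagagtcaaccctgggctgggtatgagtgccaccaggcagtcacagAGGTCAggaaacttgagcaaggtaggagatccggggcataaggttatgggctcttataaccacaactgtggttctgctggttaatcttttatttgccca
Abcc2 (chr1:252613625-252613874, plus strand): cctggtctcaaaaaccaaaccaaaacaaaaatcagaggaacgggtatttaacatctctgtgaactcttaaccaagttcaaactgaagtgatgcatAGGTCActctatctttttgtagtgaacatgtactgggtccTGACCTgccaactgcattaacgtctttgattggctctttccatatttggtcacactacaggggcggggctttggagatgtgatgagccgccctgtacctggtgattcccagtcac
The Slc10a1 matches began 197 and 99 bases before the start, and the Abcc2 matches 155 and 115 bases before it. A search for GTTAAT, a half-site of the hepatocyte factor HNF1, on both strands (ATTAAC) found 1 match in each of these windows, beginning 20 bases before the start of Slc10a1 and 100 bases before that of Abcc2, with no overlap of the 2 motifs. The HNF1 half-site was in 6.45% of all windows. A match describes the letters and not a bound site, and the arrays measured no binding.

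The deposited values are 1 log ratio per probe and array, and the base of the log is not given in the sources used here. They were read as ligated over sham, because the labels put the sham RNA in channel 1 and the ligated RNA in channel 2. The labels do not say which was divided by which. If it was sham over ligated, every sign for the operation turns. The array medians were -0.88, 0.75, -0.73 and 0.87 on arrays 1 to 4 and thus followed the dye. Across probes, arrays of opposite dye had a Pearson's r of -0.93 to -0.77 and arrays of the same dye 0.86 and 0.94, so the dye was the largest source of difference between arrays. Ratios carry no level of expression, so neither the identity of the tissue nor the order of the transporters in abundance could be checked.

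In the main fit none of the 8 transporter probes passed the threshold (limma adjusted p of 0.05 over 1936 probes), where 0.930% of all probes passed as higher and 4.80% as lower. At an unadjusted limma p under 0.05 there were 2 of the 8, Slc10a1 probe 400 on the lower side and Abcc4 probe 875 on the higher, against 14.3% of all probes. Estimates were below 0 for 5 of the 8 probes (both Slc10a1 probes and 3 of the 4 Slco2b1 probes, one of them at -0.0054), against 60.3% of all probes. With dye curves, described with the Slc10a1 values, 3 of 8 were below 0 (a curve per block) or 4 of 8 (a curve per array), against 48.9% and 49.8% of all probes. The median over the 8 was -0.05, against -0.02 over all probes. The main fit centred each array on its median and modelled the operation and the dye together. Values after ± are limma's standard errors (SE), with n = 4 arrays.

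**Figure D1:**
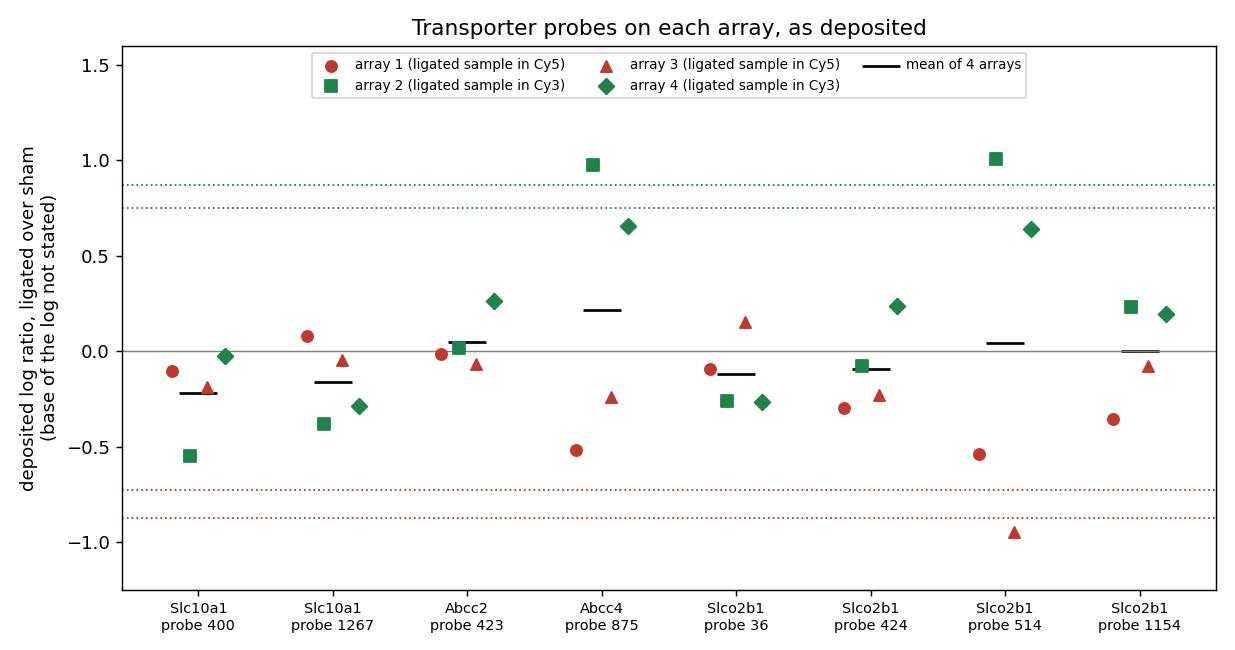
Deposited log ratios of the 8 transporter probes (vertical axis, ligated over sham, log base not stated), with 1 point per array, red where the ligated sample carried Cy5 and green where it carried Cy3. Black bars are means of 4 arrays and dotted lines are the medians of whole arrays. Slc10a1 probe 400 lies below 0 on all 4 arrays, while Abcc4 probe 875 and Slco2b1 probe 514 part by dye like the array medians. Centred on those medians, Slco2b1 probe 514 does not part by dye. Centred Abcc4 is higher on both arrays with Cy5 on the ligated sample than on either array with Cy3.

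Slc10a1 was measured by 2 probes, to which the annotation gives the same sequence accession, so they are repeat spots of one sequence and not independent evidence. Probe 400 had deposited log ratios of -0.10, -0.55, -0.19 and -0.03 on arrays 1 to 4. All 4 were below 0, as were those of 115 probes (5.94%). The deposited 0 is not the centre of the arrays: centred, probe 400 had 0.77, -1.30, 0.54 and -0.90, above the array median on arrays 1 and 3 and below it on arrays 2 and 4. Probe 1267 had deposited values of 0.08, -0.38, -0.05 and -0.29, below 0 on 3 of 4 arrays. Centred, it had 0.95, -1.13, 0.68 and -1.16, with the same split by dye. On both probes array 2 gave the lowest deposited value. The operation log ratio was -0.22 ± 0.09 for probe 400 (95% interval -0.39 to -0.05, limma adjusted p = 0.133) and -0.16 ± 0.08 for probe 1267 (-0.33 to 0.0040, limma adjusted p = 0.369). If the base is 2, these are 0.858 and 0.893 times sham, and the interval of probe 400 reaches down to 0.762 times. A fall of NTCP mRNA of that size was thus neither called nor shown to be absent. With both probes averaged the gene had -0.19 (limma adjusted p = 0.242).

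The spots of Slc10a1 differed from each other by 0.14 to 0.26 on the single arrays, a mean of 0.19, which is as large as the estimate of the gene. That is a spread on single arrays. Between the operation estimates, over 4 arrays, probe 400 minus probe 1267 was -0.06. Probe 400 was lower on arrays 1, 2 and 3 and higher on array 4. Without replicate 4, where 241 of all 1936 probes passed (202 as lower), probe 400 had -0.32 and passed (limma adjusted p = 0.00244). Without replicate 2 it had -0.12, and it passed in none of the fits without replicate 1, 2 or 3. Probe 1267 did not pass in any of the 4 fits that leave out an array, with estimates from -0.23 to -0.10.

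The estimates also differed along the order of the probe numbers. Probes were divided into 16 equal runs of consecutive numbers, called blocks here; where they lie on the slide is not known here. The blocks accounted for 37.1% of the variance of the operation estimate over all probes, and block 4, which holds Slc10a1 probe 400, Abcc2 and Slco2b1 probe 424, had a median estimate of -0.14. Slc10a1 probe 400 lay 0.09 below that median and probe 1267 lay 0.14 below the median of block 11 (-0.03). In their own blocks 10.7% and 7.44% of probes were lower. After subtracting from each array, in each block, a smooth curve of the values against the dye effect of the probes (a dye curve per block), probe 400 had -0.06 ± 0.04 and probe 1267 -0.09 ± 0.04 (limma adjusted p = 0.444 and 0.197). With each block centred on its median and no curve, probe 400 had -0.11 and probe 1267 -0.21 (limma adjusted p = 0.235 and 0.0538). With a dye curve per array they had -0.15 and -0.08. Both Slc10a1 estimates were thus below 0 in these settings, and their size moved with the setting: probe 1267 was farther from 0 with block medians alone and closer to 0 with either curve.

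**Figure D2:**
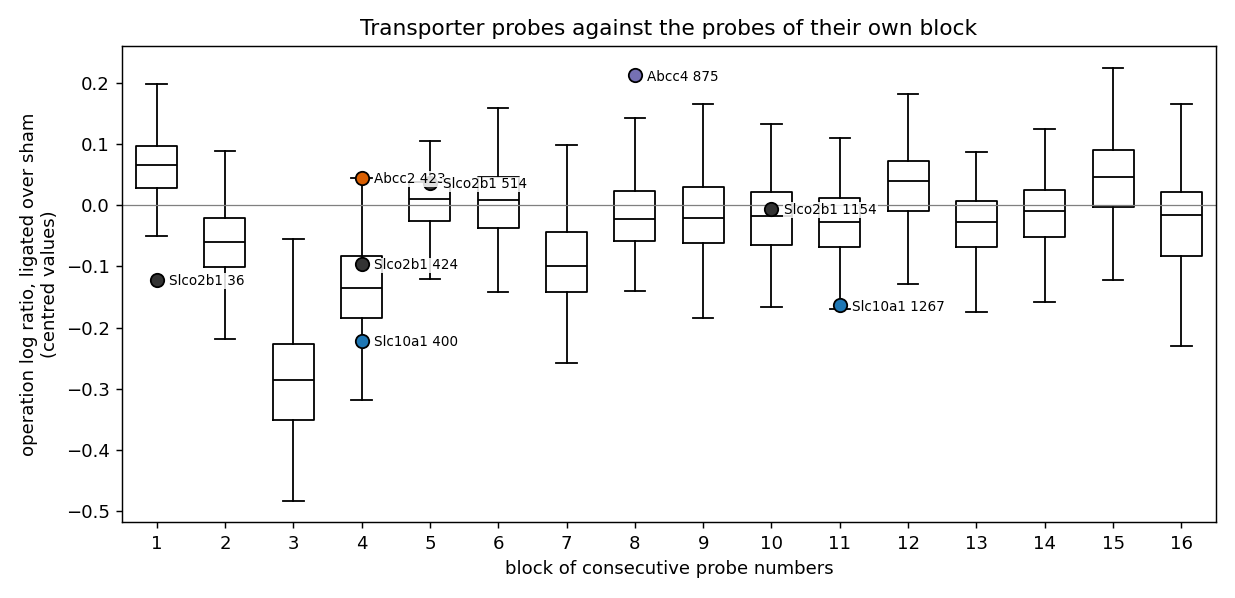
Operation log ratio (vertical axis, centred values) by block of neighbouring probe numbers (horizontal axis). Boxes span the quartiles of all probes in a block, with the median as a line and whiskers drawn by the usual box-plot rule, and coloured points are the transporter probes. Block 4 sits low, at a median of -0.14, with Slc10a1 probe 400 below it and Abcc2 above it.

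Abcc2, the canalicular MRP2, had deposited log ratios of -0.015, 0.015, -0.066 and 0.265 at its only probe, 423. Arrays 1, 2 and 3 gave deposited values close to 0, and array 4 the highest. Centred, the values were 0.86, -0.74, 0.66 and -0.61 on arrays 1 to 4, above 0 where the ligated sample carried Cy5. The operation log ratio was 0.05 ± 0.08 (95% interval -0.12 to 0.21, limma adjusted p = 0.979). If the base is 2, this is 1.03 times sham, with an interval of 0.919 to 1.16 times. Within block 4, however, 97.5% of probes had a lower estimate, and Abcc2 lay 0.18 above the block median.

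After the dye curve per block, Abcc2 had 0.18, 0.25, 0.18 and 0.13 on arrays 1 to 4, above 0 on all of them, as were 374 probes (19.3%). It rose by 0.19 ± 0.04 in that setting (limma adjusted p = 0.0102), where 3.51% of all probes passed as higher and 3.46% as lower. Abcc2 also passed without replicate 1, 3 or 4, but not without replicate 2 (0.16 ± 0.04, limma adjusted p = 0.137). Of all 1936 probes, 258, 50, 176 and 70 passed without replicates 1, 2, 3 and 4. The curve was drawn with all 4 arrays, so the array left out still shaped the values. With each block centred on its median and no curve, Abcc2 had 0.16 and did not pass (limma adjusted p = 0.0902). Among the settings that read the values as ligated over sham, the call was made only with a curve per block, at either span.

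Abcc4, the basolateral MRP4, had deposited log ratios of -0.52, 0.97, -0.24 and 0.65 at probe 875. They parted by dye, negative with Cy5 and positive with Cy3 on the ligated sample, and were above the median of their array on arrays 1, 2 and 3 and below it on array 4. Centred, they were 0.36, 0.22, 0.49 and -0.22. The operation log ratio was 0.21 ± 0.09 (95% interval 0.04 to 0.38, limma adjusted p = 0.160), the highest of the 8 probes, and 98.6% of all probes were lower. If the base is 2, this is 1.16 times sham, with an upper bound of 1.30 times.

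Abcc4 moved most when array 2 or array 4 was left out. Without replicate 4, where 241 of all probes passed (39 as higher), it had 0.32 and passed (limma adjusted p = 0.00253). It had 0.24, 0.10 and 0.18 without replicates 1, 2 and 3 and did not pass there. With the curve per block all 4 arrays were above 0 (0.14, 0.39, 0.25 and 0.01), at 0.20 ± 0.05 (limma adjusted p = 0.0561). There it passed without replicate 1, 3 or 4, where 258, 176 and 70 of all probes passed. Without replicate 2, where 50 of all probes passed, it had 0.10 (limma adjusted p = 0.398). Its own block 8 had a median of -0.02, and 99.2% of the block's probes were lower than Abcc4.

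**Figure D3:**
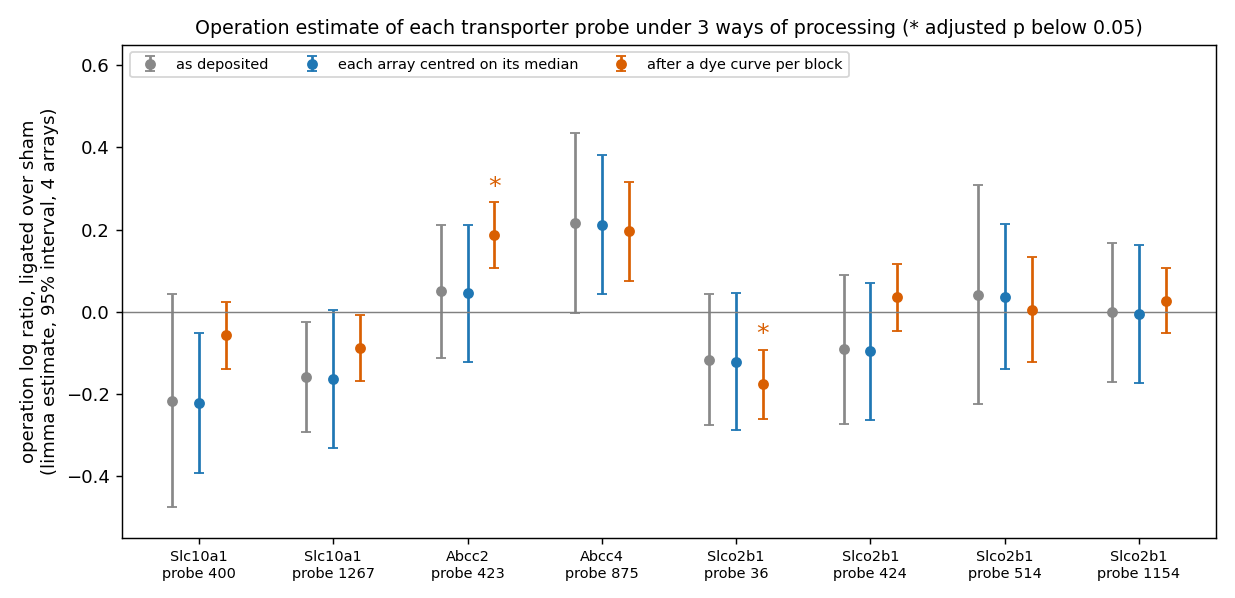
Operation log ratio of each transporter probe (vertical axis, limma estimate with its 95% interval over 4 arrays) as deposited, with arrays centred, and after the dye curve per block. Abcc4 stays near 0.20 in all 3, Abcc2 moves from 0.05 to 0.19, and the Slc10a1 probes move towards 0. Stars mark adjusted p below 0.05, which Abcc2 and Slco2b1 probe 36 reach after the dye curve per block.

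Slco2b1, the OATP2B1 importer, was measured by 4 probes with 4 different sequence accessions, and these did not behave alike. Probe 36 had deposited log ratios of -0.09, -0.26, 0.15 and -0.26 on arrays 1 to 4. Probe 424 had -0.30, -0.08, -0.23 and 0.24, and probe 1154 had -0.35, 0.23, -0.08 and 0.19. These 3 probes stayed between -0.35 and 0.24 on every array. Probe 514 had -0.54, 1.01, -0.95 and 0.64, and so followed the array medians. On array 2 the deposited values of the 4 probes of this single gene spanned -0.26 to 1.01. Centred, it was the other 3 that parted by dye. Probe 36 then had 0.78, -1.01, 0.88 and -1.14, probe 424 0.58, -0.83, 0.50 and -0.64, and probe 1154 0.52, -0.52, 0.65 and -0.68. Centred values of probe 514 were 0.34, 0.26, -0.22 and -0.23, with no split by dye.

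The operation log ratios of Slco2b1 were -0.12 ± 0.08, -0.10 ± 0.08, 0.04 ± 0.09 and -0.0054 ± 0.08 at probes 36, 424, 514 and 1154. The limma adjusted p was 0.638, 0.809, 0.991 and 0.991. Averaged, the gene had -0.05 (limma adjusted p = 0.958). The 95% intervals of the 4 probes lay between -0.29 and 0.21. Probe 514 had the largest residual spread of the 8 (residual SD 0.37, against 0.08 to 0.10 for the other Slco2b1 probes), and arrays of the same dye differed on it by more than its estimate.

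After the dye curve per block, Slco2b1 probe 36 had -0.11, -0.15, -0.27 and -0.18 and fell by 0.18 ± 0.04 (limma adjusted p = 0.0185), below 0 on all 4 arrays, as were 329 probes (17.0%). Probes 424, 514 and 1154 had 0.04, 0.0050 and 0.03 in the same setting, so that 1 of 4 probes of the gene passed and the other 3 had estimates above 0. Probe 36 lies in block 1, whose median was 0.07, and 2.48% of that block was lower. The size of this estimate depended on the setting: probe 36 had -0.21 with block medians alone (limma adjusted p = 0.0347), but -0.041 with a dye curve per array and -0.038 with quantile normalization (limma adjusted p = 0.813 and 0.887). The call with the curve per block was lost when array 2 or array 4 was left out (limma adjusted p = 0.127 and 0.132). These fits had the fewest calls over all probes (50 and 70).

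The dye effect, the dye term of the fit, is positive where a centred value was higher with Cy5 on the ligated sample. It was 0.88 and 0.98 for Slc10a1, 0.95, 0.64, 0.02 and 0.59 for Slco2b1 probes 36, 424, 514 and 1154, 0.72 for Abcc2 and 0.21 for Abcc4. For 7 of the 8 it was larger than the SE of the operation estimate, and for Slc10a1 probe 1267 94.7% of all probes had a lower one. The operation estimate also moved with it: among the 279 probes within 0.1 of the dye effect of Slc10a1 probe 400, the median operation estimate was -0.07, and among the 197 around probe 1267 it was -0.09. Of these, 12.2% and 28.4% were lower than the Slc10a1 probes. For Abcc4 the 149 such probes had a median of 0.0056, and 96.0% were lower.

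**Figure D4:**
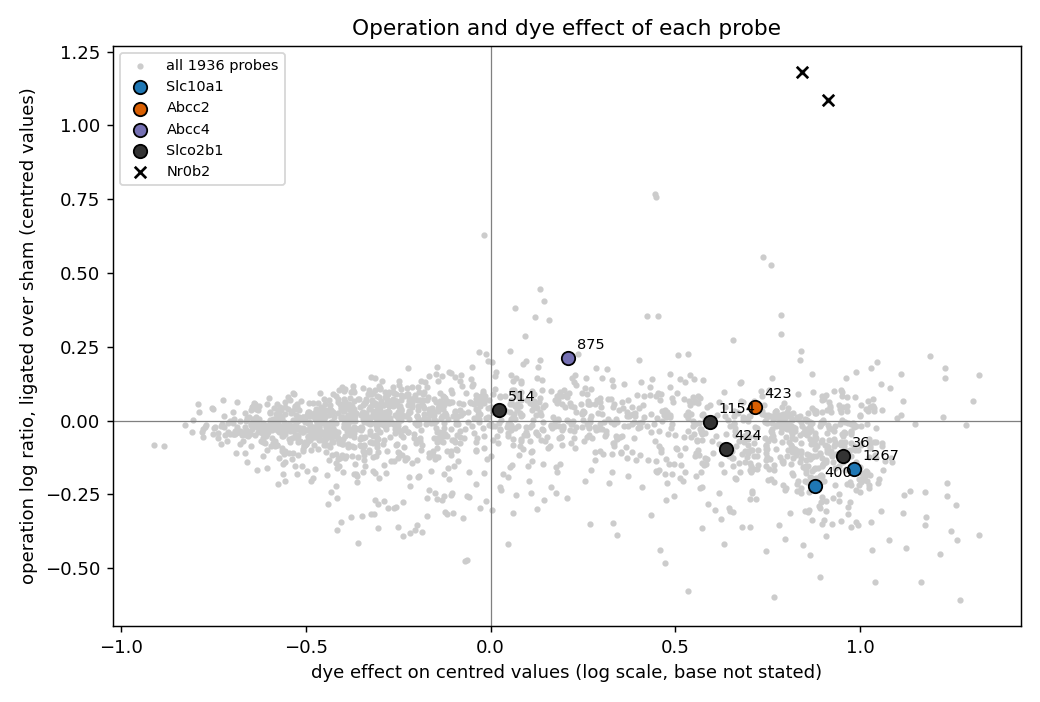
Operation log ratio (vertical axis) against the dye effect (horizontal axis), both on centred values, for all 1936 probes in grey, with the transporter probes in colour and labelled by probe number. Crosses are the 2 probes of Nr0b2, near 1.1 to 1.2. The Slc10a1 probes sit low at a dye effect of 0.88 and 0.98, and Abcc4 sits high at 0.21.

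An exact two-sided sign-flip permutation test on the 4 centred values of each probe cannot give a p below 0.125. This exact test gave p = 0.25 for Abcc4 and 0.75 or higher for the other 7 probes. It has no dye term, so the dye enters the spread, though hardly at Slco2b1 probe 514, with its dye effect of 0.02. The far smaller SEs of limma rest on a spread shared by all probes, with 76.2 prior against 2 residual degrees of freedom. Fitted as deposited, without centring, the prior was 2.60. The estimates lay within 0.01 of those above, which was fixed in advance. In this balanced design centring shifts the estimate of every probe by the same amount. None of the 8 probes passed there either, with 1 at an unadjusted limma p under 0.05 (Slc10a1 probe 1267) against 9.09% of all probes. Of all probes, 0.155% passed as higher and 0 as lower.

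Named only by likeness, the single-symbol probes closest to each transporter probe were found by root mean square difference over the 4 centred values. C3, complement factor 3, was closest to Slc10a1 probe 400 (0.06), followed by Cyb5a (0.07) and Gc (0.08), and all 3 lie in block 4. Pcbp2 (0.05), Aldh2 (0.06) and another Cyb5a probe (0.06) were closest to Slc10a1 probe 1267. Apoa1, the main protein of high-density lipoprotein, was closest to Slco2b1 probe 36, and Tst and Ywhaz came next (0.05, 0.05 and 0.07). Hnrnpk, Huwe1 and Akt2 were closest to probe 424, Mylk3, Slc6a4 and Ces2c to probe 514, and Abcb6, Map3k1 and Fabp7 to probe 1154. Calm2 was closest to Abcc2 (0.06), before Ptger1 and Hprt1, and Odc1 to Abcc4 (0.10), before Neo1 and Pawr. These 4 values share the dye pattern of the arrays, and the likeness is given as a description.

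Other transporters of 2 lists were measured sparsely. Of 20 listed basolateral uptake and efflux genes 6 were measured, by 13 probes, and of 13 canalicular genes 2, by 3 probes. None of these probes passed on centred values in either direction, and an unadjusted limma p under 0.05 was reached by Slc10a1 probe 400 and Abcc4 probe 875. Slco1a4, the OATP1A4 importer, had -0.02 ± 0.09 at probe 397 and -0.05 ± 0.08 at probe 1152. After the dye curve per block probe 397, in block 4 beside Slc10a1 probe 400, rose by 0.14 ± 0.03 (limma adjusted p = 0.0302), and probe 1152 had -0.04. Abcc1, the MRP1 pump, had 0.05 ± 0.08, the mitochondrial and vesicular porphyrin transporter Abcb6 had 0.13 ± 0.08 and 0.02 ± 0.08, and the 3 probes of Slc22a6, the renal anion exchanger OAT1, lay between -0.07 and -0.03. Slc22a6 thus supplied 3 of the 13 basolateral probes and Abcb6 2 of the 3 canalicular ones. In these 2 lists, hepatocyte membrane transporters beside the 4 examined were measured by 3 probes, those of Slco1a4 and Abcc1. Solute carriers outside the lists, such as Slc22a3 and Slc38a3, were also on the array and are not described here.

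Among genes that regulate bile acid handling, Nr0b2 changed most. Nr0b2, the small heterodimer partner that is induced by the bile acid receptor and represses its targets, had deposited values from 0.94 to 1.27 over both probes and all 4 arrays, and rose by 1.08 ± 0.08 and 1.18 ± 0.08 (limma adjusted p = 3.82e-18 and 8.11e-20). Fitted as deposited, without centring, Nr0b2 passed at both probes (limma adjusted p = 0.0116), and every other gene called in the lists given here did not, with a limma adjusted p from 0.103 (Gsta2) to 0.674 (Pf4 probe 292). Nr1h4, the bile acid receptor FXR, had -0.11 ± 0.09 (limma adjusted p = 0.770). Rxrg, a partner of such receptors, rose by 0.27 ± 0.08 at probe 582 (limma adjusted p = 0.0337), with deposited values of 0.05, 0.44, 0.20 and 0.42, and had -0.07 at probe 1540. Nr3c1, the glucocorticoid receptor, fell by 0.35 ± 0.09 at probe 340 in block 3 (limma adjusted p = 0.00705), and with the curve per block it had -0.09 (limma adjusted p = 0.329). Its other 2 probes had -0.04 and -0.13. Of 27 listed regulators 10 were measured, by 17 probes, of which 3 rose and 1 fell, with a median of -0.07. The rises were those of both Nr0b2 probes and Rxrg probe 582. Over all probes 0.930% passed as higher and 4.80% as lower. After the dye curve per block the same 3 rose and none fell, against 3.51% and 3.46% of all probes.

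In the list of 18 genes of bile acid synthesis and conjugation 3 were measured, by 6 probes, of which 2 fell, with a median of -0.18. Over all probes 0.930% passed as higher and 4.80% as lower, the shares to set beside each list of this paragraph. Cyp8b1, the sterol 12-alpha hydroxylase, fell at probe 1391, and Cyp7a1, the rate-limiting enzyme, at probe 889, by 0.42 ± 0.09 and 0.31 ± 0.08 (limma adjusted p = 0.000416 and 0.0128). The other probes of these genes had -0.21 (Cyp8b1) and -0.15 (Cyp7a1) and did not pass. After the dye curve per block 3 of the 6 probes fell, against 3.46% of all probes. They were Cyp8b1 probe 1391 and both of Cyp7a1, of which probe 72 had -0.21 (limma adjusted p = 0.0103). Fitted as deposited, Cyp8b1 probe 1391 and Cyp7a1 probe 889 did not pass (limma adjusted p = 0.150 and 0.151). Cyp27a1, which starts the alternative pathway, had -0.01 and -0.10. Of 9 cytosolic carriers of organic anions 2 were measured: Gsta2, a glutathione transferase that also binds bilirubin and whose conjugates are MRP2 cargo, rose by 0.55 ± 0.08 (limma adjusted p = 9.69e-07), and Gstm2 had -0.07. In the trafficking and anchoring list, 5 of 13 genes were measured by 10 probes, of which 2 fell: Mapk14, the p38 kinase, by 0.60 ± 0.09, and Prkcz probe 369, an atypical protein kinase C, by 0.37 ± 0.09 (limma adjusted p = 9.69e-07 and 0.00361). These lie in blocks 3 and 4, which held 60 and 11 of the 93 lower calls. With the curve per block they fell by 0.30 ± 0.06 and 0.24 ± 0.06 (limma adjusted p = 0.0138 and 0.0330), and fitted as deposited they did not pass (limma adjusted p = 0.349 and 0.487). The other Prkcz probes had 0.02 and -0.01. Of the 5 bilirubin genes 2 were measured, Hmox2 with 0.15 and Blvra with 0.09, and neither passed.

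Markers of liver cell types were checked because a shift in the make-up of the tissue cannot be told apart from a change of mRNA per cell in pooled liver. The 6 measured hepatocyte markers, by 13 probes, had 0 limma calls on centred values and a median of -0.05, near that of the 8 transporter probes. At an unadjusted limma p under 0.05 there were 3 of the 13, against 14.3% of all probes. Most of the 13 probes were of Cyp2e1, and these went both ways. Probes 130, 222 and 437 had -0.04, -0.05 and -0.19, and probes 1234, 1345, 1363 and 1639 had 0.07, 0.06, 0.05 and 0.07. The other markers were set apart from Cyp2e1 after their values were seen, so they do not stand for the whole list. Their probes were below 0, as were 60.3% of all probes: Tf -0.08, Apoa1 -0.15, Apob -0.11, Ttr -0.24, and Serpina1 -0.23 and -0.04. After the dye curve per block 1 of the 13 probes rose and 1 fell (Cyp2e1 probe 1234 and Ttr), against 3.51% and 3.46% of all probes. Of the other types, 1 of 4 stellate cell probes rose, Col1a1 probe 1306 (0.34 ± 0.08, limma adjusted p = 0.00526), and 1 of 2 blood probes fell, Pf4 probe 292 in block 3 (-0.30, limma adjusted p = 0.0337; -0.05 after the dye curve per block). The 1 cholangiocyte, 2 neutrophil and 3 endothelial probes did not pass (1 of them, Cdh5, had an unadjusted limma p under 0.05), and the macrophage and lymphoid lists had no measured gene.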

How the data were processed

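Pooled liver RNA was labelled with Cy3 or Cy5 and hybridised to a cDNA array of 1800 genes, per the labels. The deposited values are log ratios of the 2 channels. Their log base, scanner, background correction and normalization are not stated in the labels or files. No spot intensity was used, so dim probes could not be filtered, and 4 arrays limit the precision.

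Gene IDs of the platform annotation were matched to current RefSeq symbols (GRCr8). Of 1936 probes, 1432 had 1 symbol, 19 several and 485 none. Arrays were centred on their medians and all probes were fitted with limma 3.58.1 (R 4.3.3), Benjamini-Hochberg adjusted over all probes, at a threshold of 0.05. The script was tested on simulated data with independent noise and no block effect on the operation. These arrays do show differences between blocks, so that test does not show how reliable the calls are here. Dye curves were lowess fits (span 0.67) of an array's centred values against the dye effect, and the block size came from an earlier analysis of these values.

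Named were all member probes, each measured transporter of the lists, Nr0b2, Nr1h4, Cyp7a1 and Cyp8b1, other list genes with a call, and the 3 probes most alike. Other probes of these genes, and genes of lists with few measured members, were named after their values were seen. Members and lists were chosen with earlier results of these data known. Whether arrays shared extracts is not in the labels, so p-values cover only the spread between arrays, which may be technical. The arrays form 1 group. Settings beside the main one were no centring, equal scaling, Cy5 over Cy3, no dye term, a robust prior, averaged probes, quantile normalization, dye curves per array or block, each dye orientation alone, and leaving out each array. A narrower span (0.333), block medians alone, and leaving out arrays after the curve per block were chosen after seeing the data.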

Additional observations from a re-analysis of the deposited data

How the results depend on the processing

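No paired analysis was possible because all 4 arrays are in 1 group. The calls over all probes (111, of which 18 higher and 93 lower) moved to 3 as deposited (3 and 0), 62 with equal scaling (47 lower), 1599 in the Cy5 over Cy3 reading (816 and 783), 0 without a dye term (0 and 0), 67 with a robust prior (49 lower), 37 with probes averaged (23 lower), 12 with quantile normalization (9 and 3), 7 with a dye curve per array (7 and 0), 68 higher with a dye curve per block, and 53 higher and 51 lower with its narrower span. Leaving out an array gave 12 calls (without replicate 3) to 241 calls (without replicate 4), with 6 to 39 higher and 4 to 202 lower. In the Cy5 over Cy3 reading the transporter values are the dye effects: 0.88 and 0.98 for Slc10a1, 0.95, 0.64 and 0.59 for Slco2b1 probes 36, 424 and 1154, 0.72 for Abcc2 and 0.21 for Abcc4, all past the limma threshold. The dye curve per block made Abcc2 (0.19; 0.19 with the narrower span) and Slco2b1 probe 36 (-0.18; -0.17; -0.21 with block medians only; but -0.041 with a curve per array and -0.038 with quantile normalization, not past the threshold) pass, and turned Slco2b1 probe 424 (0.035; 0.025; 0.017 with block medians) and probe 1154 (0.026; 0.019; 0.034 with a curve per array; 0.055 with quantile normalization). The average of the 4 Slco2b1 probes, -0.047, has the opposite sign to probe 514 alone, and probe 514 turned to -0.0011 with the narrower span. Without each array in turn, Slc10a1 probe 400 ranged from -0.32 to -0.12, probe 1267 from -0.23 to -0.10, Abcc2 from -0.0046 to 0.095, Abcc4 from 0.10 to 0.32, and Slco2b1 probes 36, 424, 514 and 1154 from -0.15 to -0.09, -0.14 to -0.05, -0.10 to 0.18 and -0.045 to 0.034. In these fits the prior was infinite, so all probes shared an SE of 0.144 (without replicate 1 or 3) or 0.0864 (without 2 or 4). After the curve per block, the prior degrees of freedom were 71.0 without replicate 1 or 3 and 6.99 without 2 or 4. For the limits, the directions of both Slc10a1 probes, Abcc4 and Slco2b1 probe 36 held in every setting that reads the values as ligated over sham over both dyes. All these settings use the same 4 arrays, and leaving out the dye term or using a robust prior cannot change an estimate. Leaving out the centring only shifts all estimates by the same small amount. The share of all probes that kept their direction was not counted. The mean of either dye orientation alone is set by the dye: for Slc10a1 probe 400 it was 0.66 with Cy5 and -1.10 with Cy3 on the ligated sample. The cause of these changes was not tested.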
